A study of Mus musculus with 6 samples.

Results

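Epithelial cells are joined by tight junctions, adherens junctions and desmosomes, and the 44 genes described here encode their proteins, the polarity complexes that position them, and the matriptase protease system that acts at the same membranes. The genes were listed by name, with earlier results of these data known. With 1 probe set per gene symbol, 43 of them were found among the 19505 genes measured. Ctnnb1 was not analysed here.

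Transcript levels were measured on 6 Affymetrix Clariom S arrays in 393P cells, a line from a mouse lung adenocarcinoma whose name some labels write as 9393P. The AC9 group (3 arrays) carried a stable transfection for overexpression of AC9. The reference gene table pairs AC9 with Adcy9, which encodes a cAMP-making adenylyl cyclase. The VECTOR group (3 arrays) carried the empty vector. All cells grew in RPMI with fetal bovine serum and were selected with puromycin or G418; the sources used here do not give the drug of each group, nor whether the 3 samples of a group were separate cultures or clones. An effect of drug or of clone selection cannot be told apart from one of AC9, and p-values cover no more than the spread between these arrays, which may be technical.

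At an adherens junction the cadherin Cdh1 binds its counterpart on the neighbouring cell and is held to actin by catenins. Tight junctions lie apical to it: claudins and occludin seal the space between cells, and ZO and cingulin proteins form the plaque beneath them. Desmosomes use their own cadherins, the desmogleins and desmocollins, which plakoglobin, plakophilins and desmoplakin tie to keratin filaments. Matriptase (St14) and prostasin (Prss8) are membrane proteases of epithelia, Spint1 and Spint2 are their inhibitors, and Epcam is an adhesion protein that matriptase can cleave.

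Many promoters of epithelial genes hold the E-box CAGGTG, the element that repressors of the ZEB and SNAIL families bind. RefSeq promoter sequences (build GRCm38.p6) matched 27 of the 43 measured genes. In the 250 bases before a listed start, CAGGTG or its reverse complement CACCTG was present for 15 of these 27 genes (55.6%), beside 19.2% of the 15691 array genes with a promoter in the table. By call in the comparison below, 5 of 7 genes that were higher in AC9 held it, 3 of 6 that were lower, and 7 of 14 that were not called. A match before any listed start of a gene counted, and the order of these shares depends on that choice. Ocln, Pard3 and Pkp4 among the higher genes, and Cldn7 among those not called, held none before their most upstream listed start. All 3 lower genes with a match held it there. The matches are letters in a window and were not tested as binding sites. The sequences below are those of the called genes with the largest changes in each direction that held a match before their most upstream listed start, Crb3 and Spint2 among the lower genes and Cldn4 and Epcam among the higher ones; capitals mark the E-boxes on either strand.
Crb3, chr17:57061951-57062200, plus strand: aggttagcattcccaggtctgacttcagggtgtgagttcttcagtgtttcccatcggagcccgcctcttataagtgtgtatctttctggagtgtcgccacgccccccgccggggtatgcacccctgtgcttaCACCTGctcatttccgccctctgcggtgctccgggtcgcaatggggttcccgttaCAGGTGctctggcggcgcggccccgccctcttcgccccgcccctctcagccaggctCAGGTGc
Spint2, chr7:29281978-29282227, minus strand: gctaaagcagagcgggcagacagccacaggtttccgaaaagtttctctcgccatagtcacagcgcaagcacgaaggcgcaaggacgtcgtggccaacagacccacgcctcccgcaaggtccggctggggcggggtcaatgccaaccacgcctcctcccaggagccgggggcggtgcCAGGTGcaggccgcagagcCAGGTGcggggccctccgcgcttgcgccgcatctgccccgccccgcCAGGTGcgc
Cldn4, chr5:134946935-134947184, minus strand: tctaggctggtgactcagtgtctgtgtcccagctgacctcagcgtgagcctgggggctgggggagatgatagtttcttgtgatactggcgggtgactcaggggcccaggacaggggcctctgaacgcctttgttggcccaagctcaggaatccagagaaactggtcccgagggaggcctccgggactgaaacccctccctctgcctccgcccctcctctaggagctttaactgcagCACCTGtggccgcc
Epcam, chr17:87635729-87635978, plus strand: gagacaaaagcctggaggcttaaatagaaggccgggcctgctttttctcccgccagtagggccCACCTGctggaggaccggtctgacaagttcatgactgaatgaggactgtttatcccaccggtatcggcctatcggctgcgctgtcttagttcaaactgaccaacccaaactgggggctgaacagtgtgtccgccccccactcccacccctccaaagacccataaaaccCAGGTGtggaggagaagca
Crb3 held 3 matches, the nearest 7 bases before the start, and Spint2 also held 3, the nearest 9 bases before it. Cldn4 held 1 match, 14 bases before its start, and Epcam 2, the nearest 19 bases before it. Lsr, which was lower, held 4. Dsp, Tjp1, Jup, Spint1 and Cldn2, which were all called, held none before any listed start. The level of Zeb1, a ZEB repressor that was named after its values were seen, was 8.42, 8.42 and 8.58 in VECTOR and 9.57, 9.63 and 9.63 in AC9 (log2 intensity; limma adjusted p 6.95e-05). Other members of the ZEB and SNAIL families are not described here, and the part of Zeb1 in these changes was not tested.

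Junction genes moved in both directions in AC9 cells, within every junction type that had more than 1 called gene. For the claudins, the other tight junction membrane proteins and the matriptase list, 1 direction rested on Cldn4, Lsr or Epcam alone. Each of these lost its call without at least 1 array. Of the 43 genes, 10 rose and 7 fell at a limma adjusted p of 0.05, and 26 did not pass. In bulk RNA such as this, fewer cells with a transcript and less of it per cell cannot be told apart. Over all genes tested, 17.6% passed, 8.26% higher and 9.29% lower, beside 39.5% of the junction genes, 23.3% higher and 16.3% lower. A gene was treated as dim where its group mean lay under 6.06, the 90th percentile of 5222 negative-control probe sets averaged over the arrays. Brighter genes passed more often: 28.7% of all genes that were not dim in both groups did so, beside 17 of the 34 junction genes for which this held (50%). That share is a description, since a gene bright in only 1 group is kept because its groups differ. The median log2 change was -0.05 over the junction genes and 0.02 over all genes, and the median of its absolute size was 0.29 and 0.16. By type, the median log2 change was -0.43 for the 5 genes of the matriptase system and Epcam, -0.19 for the 6 other tight junction membrane proteins, -0.09 for the 9 claudins, -0.01 for the 4 polarity genes, 0.01 for the 12 desmosomal genes, 0.06 for the 3 adherens genes and 0.17 for the 4 plaque genes. The medians count dim genes too, whose own changes are given below without a size or as a lower limit. The groups did not overlap for 24 of the 43 genes (55.8%), 11 with AC9 higher and 13 with AC9 lower, beside 35.1% of all genes (17.3% with AC9 higher and 17.7% lower). No called junction gene above that bound in both groups changed as much as 2-fold; of all genes, 0.713% passed with a rise of at least that size and 1% with a fall. For Crb3 and Ppl, which were under it in AC9, only a lower limit of the fold can be given. The number higher was 5 without VECTOR replicate 1, 5 without AC9 replicate 1, and 6 without either VECTOR replicate 2 or AC9 replicate 3.

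**Figure D1:**
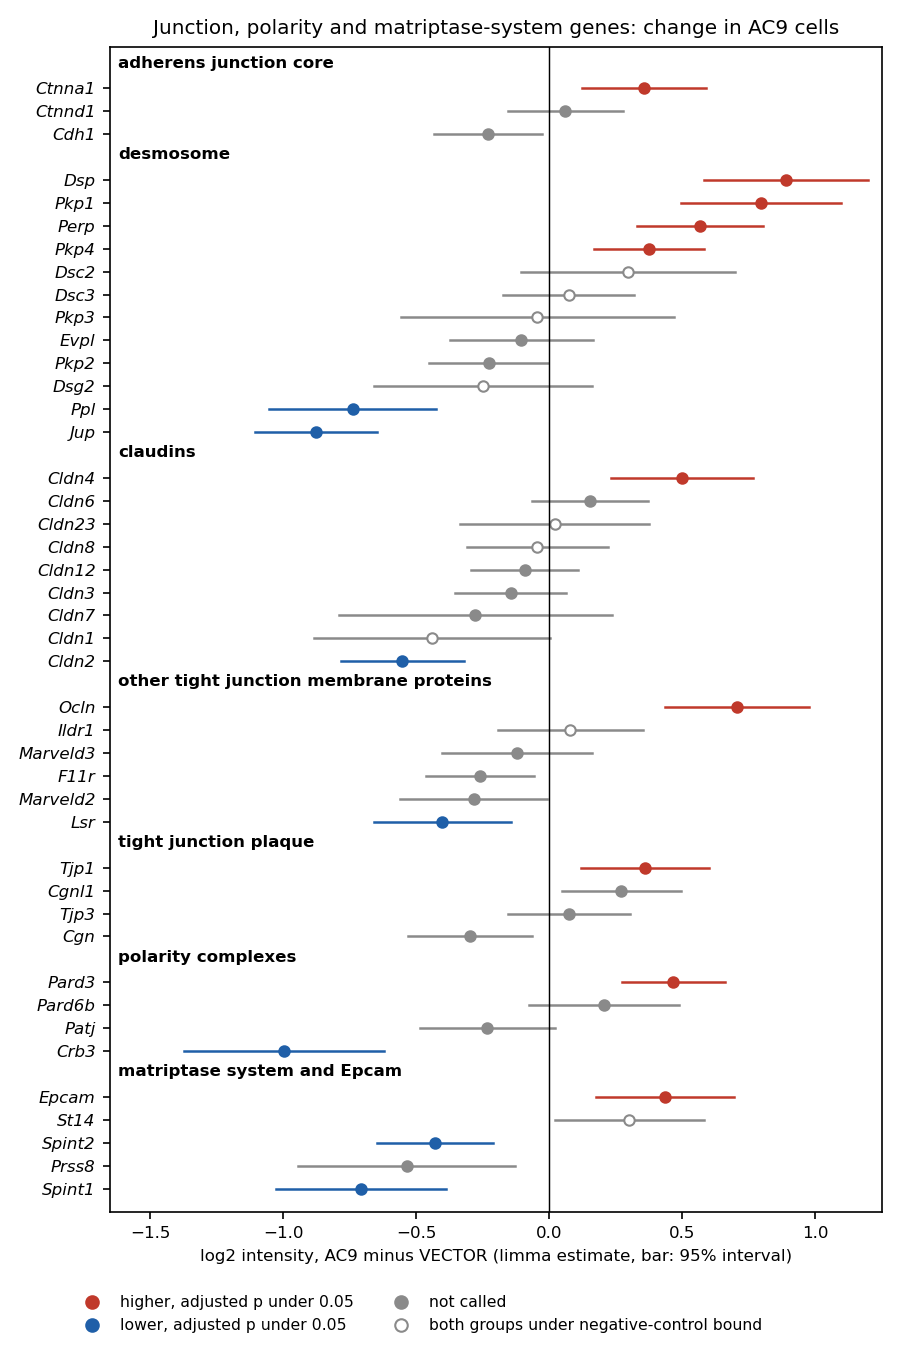
Change in log2 intensity, AC9 minus VECTOR, of the 43 measured genes by junction type, with the 95% interval of the limma fit as a bar; red marks the 10 called higher, blue the 7 called lower, grey those not called, and open points the 9 dim in both groups. Points lie on both sides of 0 in all 7 types, up to 0.89 for Dsp and down to -0.88 for Jup among genes that were not dim in either group; those of Crb3 and Ppl, dim in AC9, may understate the change.

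By the negative-control bound 9 junction genes were dim in both groups (Dsc2, Dsc3, Dsg2, Pkp3, Cldn1, Cldn8, Cldn23, Ildr1 and St14), and their changes are given no size; 0 of the 9 passed the limma test, and St14 alone had an unadjusted p under 0.05. Ppl, Cldn7, Marveld2, Crb3 and Prss8 were dim in AC9 only, so a fold for them is a lower limit, the VECTOR mean over the higher of the bound and the gene's own value on each AC9 array. Array intensities are not compared between genes.

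Of the 12 desmosomal genes, 4 rose and 2 fell (50% called, beside 17.6% of all genes). Dsp, desmoplakin, which anchors keratin filaments to the plaque, read 7.18, 7.62 and 7.33 in VECTOR and 8.07, 8.30 and 8.43 in AC9. All 3 AC9 arrays lay above all VECTOR arrays, and Dsp rose by a log2 change of 0.89 (SE 0.14), or 1.85-fold (limma adjusted p 0.00233). Pkp1, plakophilin 1, which clusters desmosomal proteins, read 7.24, 7.53 and 7.34 in VECTOR and 7.91, 8.22 and 8.37 in AC9. It rose 1.73-fold (log2 change 0.79, SE 0.13, limma adjusted p 0.00369), again without overlap. Perp, a membrane protein of desmosomes and a p53 target, read 9.54, 9.65 and 9.71 in VECTOR and 10.23, 10.04 and 10.32 in AC9. Perp rose 1.48-fold (log2 change 0.57, SE 0.11, limma adjusted p 0.00599).

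Jup, plakoglobin, the catenin shared by desmosomes and adherens junctions, went the other way. It read 10.78, 10.90 and 10.71 in VECTOR and 9.88, 9.83 and 10.05 in AC9, a gap wider than the range of either group. Jup fell 1.84-fold (log2 change -0.88, SE 0.10) and had the smallest adjusted p of the junction genes, 0.000532 by limma. Ppl, periplakin, a plakin that links desmosomes and the cornified envelope to filaments, read 6.12, 6.47 and 6.68 in VECTOR and 5.63, 5.68 and 5.74 in AC9. Ppl fell at least 1.26-fold (limma adjusted p 0.00626), and all 3 of its AC9 values were under the bound. Its partner Evpl, envoplakin, was 7.33 ± 0.19 in VECTOR and 7.23 ± 0.11 in AC9 (SD, n = 3; limma adjusted p 0.614).

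The other plakophilins differed among themselves. Pkp4, which is found at adherens junctions as well, read 9.11, 9.05 and 9.14 in VECTOR and 9.47, 9.39 and 9.56 in AC9, without overlap. Pkp4 rose 1.30-fold (log2 change 0.37, SE 0.09, limma adjusted p 0.0211). Its call was lost without VECTOR replicate 1 (limma adjusted p 0.0524), VECTOR replicate 2 (0.0615), AC9 replicate 1 (0.0685) or AC9 replicate 3 (0.0827). Pkp2 was 8.73 ± 0.04 in VECTOR and 8.50 ± 0.13 in AC9 (SD, n = 3), a log2 change of -0.23 (95% interval -0.45 to -0.0037) that did not pass (limma adjusted p 0.158), although the groups did not overlap.

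The desmosomal cadherins gave little signal. Dsc2, Dsc3 and Dsg2 had group means of 4.46 to 5.99, and Dsc2 and Dsc3 were under the bound on every array. Dsg2 was above the bound of its own array on 3 of 6 arrays. Dsc1 and the other 5 desmogleins measured were also under the bound in both groups, although Dsc1, singled out after its values were seen, was called higher in AC9 without overlap (limma adjusted p 0.0235). All 9 desmosomal cadherins thus had both group means under the bound, which does not compare their level with that of other desmosomal genes.

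**Figure D2:**
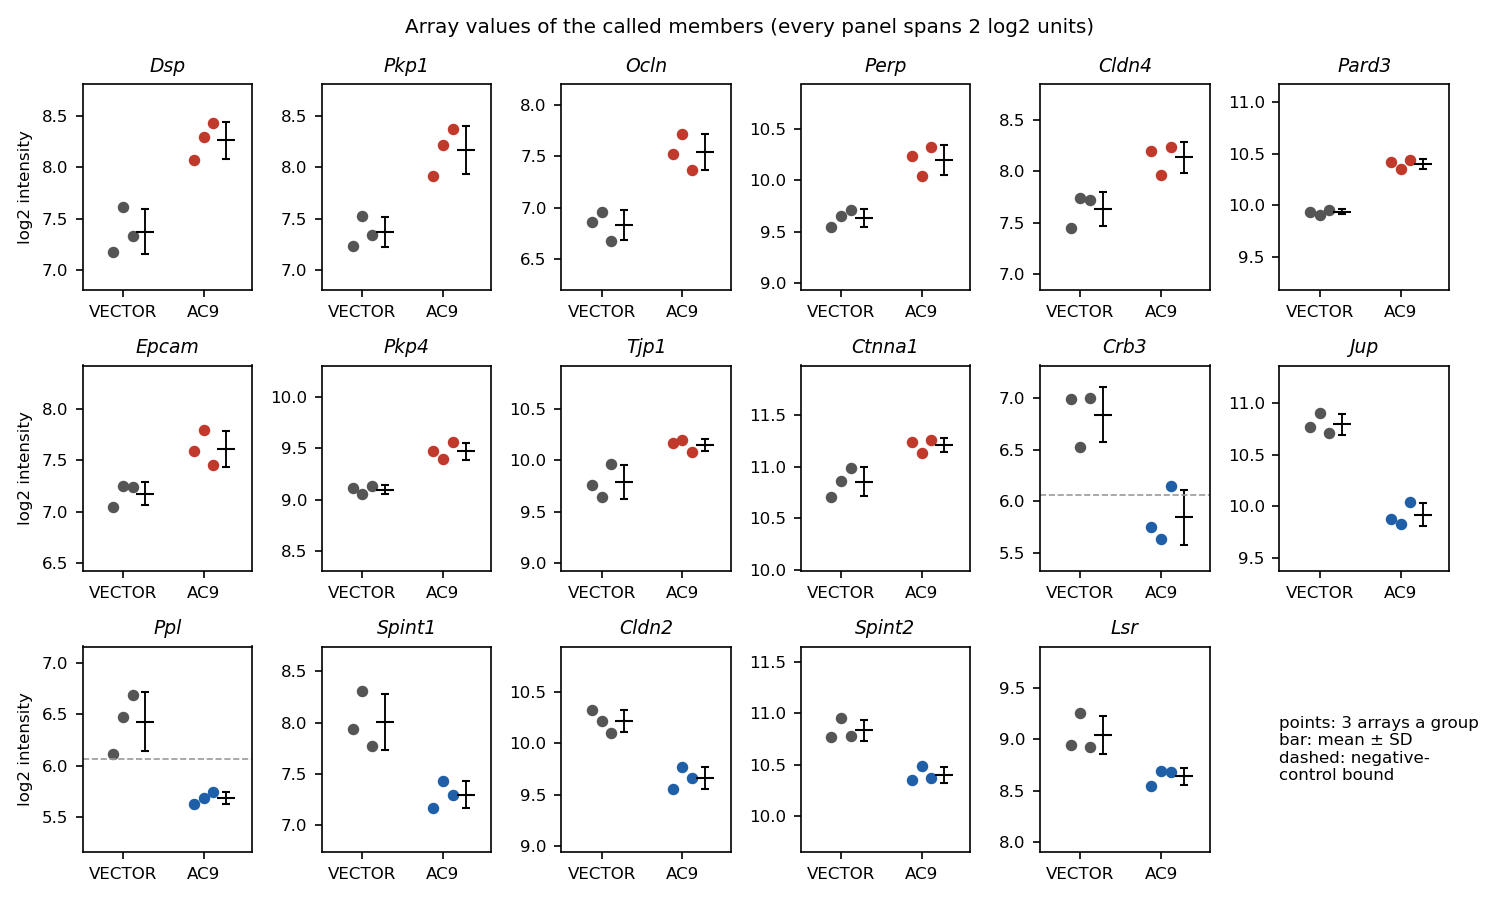
Log2 intensity on each array for the 17 called genes, 10 higher in AC9 (red) and then 7 lower (blue), with VECTOR in grey; points are arrays, bars the mean ± SD (n = 3), and each panel spans 2 log2 units around its own centre. No panel has overlapping groups, and the dashed line in the panels of Crb3 and Ppl is the negative-control bound.

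In the core of the adherens junction, Cdh1, E-cadherin, was bright in both groups. It read 12.76, 12.90 and 12.87 in VECTOR and 12.57, 12.64 and 12.62 in AC9, so that every AC9 array was lower. The log2 change was -0.23 (SE 0.09, 95% interval -0.43 to -0.03), or 1.17-fold, and did not pass (limma adjusted p 0.115). With a prior variance that follows intensity and is robust to outlying genes, the same change passed (limma adjusted p 0.00105), as it did with dim genes left out of the adjustment (0.0388).

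Ctnna1, alpha-catenin, which joins the cadherin complex to actin, read 10.71, 10.87 and 10.99 in VECTOR and 11.24, 11.14 and 11.26 in AC9. Ctnna1 rose 1.28-fold (log2 change 0.36, SE 0.10, limma adjusted p 0.0428), near the threshold. Its call was lost without VECTOR replicate 1 (limma adjusted p 0.125), VECTOR replicate 2 (0.0885) or AC9 replicate 1, 2 or 3 (0.123, 0.0680 and 0.126), and with quantile normalization repeated (0.0649). Ctnnd1, p120-catenin, which holds cadherin at the membrane, was 9.77 ± 0.07 in VECTOR and 9.83 ± 0.10 in AC9 (SD, n = 3), with a 95% interval of the log2 difference of -0.16 to 0.28 (limma adjusted p 0.735).

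Among the 9 claudins, 1 rose and 1 fell (22.2% called, near the 17.6% of all genes). Cldn4, a claudin that tightens the barrier in many epithelia, read 7.44, 7.74 and 7.72 in VECTOR and 8.20, 7.96 and 8.24 in AC9. Cldn4 rose 1.41-fold (log2 change 0.50, SE 0.12, limma adjusted p 0.0189), and its call was lost without VECTOR replicate 1 (0.0618), AC9 replicate 1 (0.0712) or AC9 replicate 3 (0.0695). Cldn2, which forms cation pores and makes junctions leaky, read 10.32, 10.22 and 10.10 in VECTOR and 9.55, 9.77 and 9.66 in AC9. Cldn2 fell 1.47-fold (log2 change -0.55, SE 0.10, limma adjusted p 0.00593), with every AC9 array below every VECTOR array.

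The other claudins did not pass. Cldn3 was 9.03 ± 0.08 in VECTOR and 8.89 ± 0.06 in AC9, Cldn6 10.82 ± 0.10 and 10.97 ± 0.08, and Cldn12 9.55 ± 0.08 and 9.46 ± 0.01 (SD, n = 3). Their log2 differences had 95% intervals of -0.35 to 0.06, -0.07 to 0.37 and -0.29 to 0.11. Cldn7 was close to the bound, at 6.30 ± 0.31 and 6.02 ± 0.47. Cldn1 and Cldn8 were under the bound on all 6 arrays, as was Cldn23.

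Ocln, occludin, a tight junction membrane protein, read 6.87, 6.96 and 6.67 in VECTOR and 7.53, 7.72 and 7.37 in AC9. The groups lay apart by more than the range of either, and Ocln rose 1.63-fold (log2 change 0.70, SE 0.12, limma adjusted p 0.00400). Its relatives did not pass: Marveld2, tricellulin, the protein of 3-cell contacts, was 6.32 ± 0.14 in VECTOR and 6.03 ± 0.19 in AC9 (limma adjusted p 0.153), and Marveld3 was 7.66 ± 0.21 and 7.54 ± 0.13 (SD, n = 3; limma adjusted p 0.580).

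Lsr, angulin 1, which recruits tricellulin to those contacts, read 8.94, 9.26 and 8.92 in VECTOR and 8.54, 8.69 and 8.68 in AC9. Lsr fell 1.32-fold (log2 change -0.40, SE 0.12, limma adjusted p 0.0404). Its call was lost without VECTOR replicate 1 or 2 (limma adjusted p 0.0586 and 0.107), without AC9 replicate 1, 2 or 3 (0.136, 0.0762 and 0.0818), and with each array centred on its median (0.0509). F11r, the junctional adhesion molecule JAM-A, was 10.81 ± 0.08 in VECTOR and 10.55 ± 0.03 in AC9 (SD, n = 3), without overlap. Its log2 change of -0.26 did not pass (limma adjusted p 0.0814) except with the intensity-trended prior (0.00455), with dim genes left out (0.0248) and with quantile normalization repeated (0.0459).

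In the tight junction plaque, Tjp1, the scaffold ZO-1, read 9.76, 9.65 and 9.97 in VECTOR and 10.17, 10.20 and 10.08 in AC9. Tjp1 rose 1.28-fold (log2 change 0.36, SE 0.11, limma adjusted p 0.0472). This was the call nearest the threshold, lost without VECTOR replicate 1 or 2 (limma adjusted p 0.116 and 0.134), without AC9 replicate 1, 2 or 3 (0.128, 0.130 and 0.0815), and with quantile normalization repeated (0.0701). Tjp3, ZO-3, was 6.33 ± 0.14 in VECTOR and 6.40 ± 0.05 in AC9 (SD, n = 3; limma adjusted p 0.687).

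The cingulins lay on opposite sides of 0. Cgn, cingulin, read 7.92, 8.13 and 7.89 in VECTOR and 7.67, 7.60 and 7.78 in AC9 (log2 change -0.30, limma adjusted p 0.0800). Cgnl1, paracingulin, read 8.40, 8.18 and 8.19 in VECTOR and 8.55, 8.46 and 8.56 in AC9 (log2 change 0.27, limma adjusted p 0.0938). Neither overlapped between the groups and neither passed; both passed with dim genes left out (limma adjusted p 0.0269 for Cgn and 0.0318 for Cgnl1) and with the intensity-trended prior (0.0499 and 0.0456).

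Of the 4 polarity genes, 1 rose and 1 fell (50% called, beside 17.6% of all genes). Crb3, the Crumbs protein of epithelial apical membranes, read 7.00, 6.53 and 7.00 in VECTOR and 5.75, 5.64 and 6.15 in AC9. All AC9 values were lower, 2 of 3 of them under the bound, and Crb3 fell at least 1.66-fold (limma adjusted p 0.00355). Patj, which joins the Crumbs complex, was 7.33 ± 0.17 in VECTOR and 7.10 ± 0.10 in AC9 (SD, n = 3), with a 95% interval of -0.49 to 0.02 for the log2 difference (limma adjusted p 0.202).

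Pard3, the scaffold of the Par complex that places tight junctions, read 9.94, 9.91 and 9.96 in VECTOR and 10.42, 10.35 and 10.43 in AC9. The arrays of a group lay close together (SD 0.02 in VECTOR and 0.05 in AC9, n = 3), and Pard3 rose 1.38-fold (log2 change 0.47, SE 0.09, limma adjusted p 0.00594). Its partner Pard6b was 8.04 ± 0.22 in VECTOR and 8.25 ± 0.11 in AC9 (SD, n = 3; limma adjusted p 0.318).

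Both protease inhibitors of the matriptase system fell. Spint1, HAI-1, read 7.94, 8.31 and 7.77 in VECTOR and 7.17, 7.44 and 7.30 in AC9. Spint1 fell 1.63-fold (log2 change -0.71, SE 0.14, limma adjusted p 0.00872), without overlap. Spint2, HAI-2, read 10.77, 10.95 and 10.78 in VECTOR and 10.35, 10.49 and 10.37 in AC9. Spint2 fell 1.35-fold (log2 change -0.43, SE 0.10, limma adjusted p 0.0145), and the call was lost without AC9 replicate 1 (0.0612) or AC9 replicate 3 (0.0536).

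The proteases themselves were dim or nearly so. St14, matriptase, read 4.86 to 5.25 in VECTOR and 5.20 to 5.40 in AC9, under the bound on all 6 arrays. Prss8, prostasin, read 6.59, 6.20 and 5.96 in VECTOR and 5.50, 5.62 and 6.03 in AC9, with overlap; its change did not pass (limma adjusted p 0.0735), but did without VECTOR replicate 3 (0.0427), without AC9 replicate 3 (0.0365) and with the intensity-trended prior (0.0240). Epcam read 7.04, 7.24 and 7.24 in VECTOR and 7.58, 7.79 and 7.45 in AC9. Epcam rose 1.35-fold (log2 change 0.44, SE 0.12, limma adjusted p 0.0293), and its call was lost without VECTOR replicate 1, 2 or 3 (0.0949, 0.0517 and 0.0501) or AC9 replicate 1 or 2 (0.0755 and 0.0983).

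**Figure D3:**
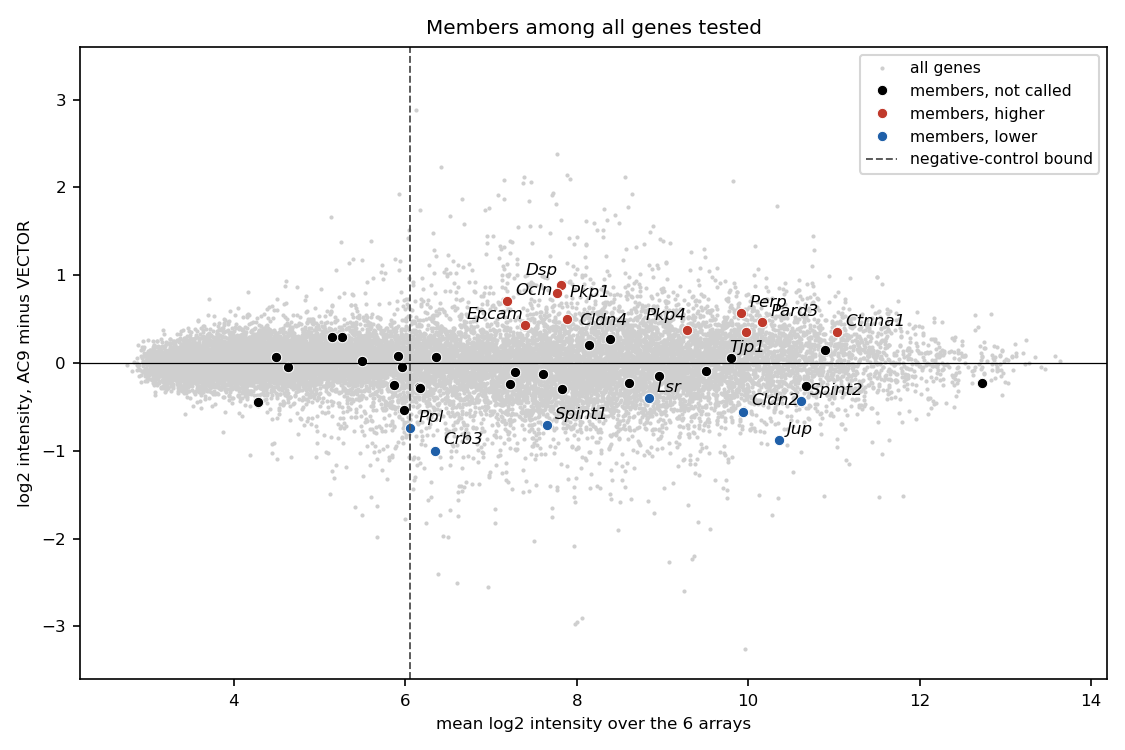
Log2 change, AC9 minus VECTOR, against the mean log2 intensity over the 6 arrays for all 19505 genes (grey) and the 43 junction genes (black where not called, red and blue where called higher or lower). The called junction genes lie from about the negative-control bound of 6.06 (dashed) upward and within the spread of the other genes; Crb3 and Ppl were under it in AC9, so their plotted changes may be too small.

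A further list held 77 other genes of the same junctions, of which 72 were measured. Of these 9 rose and 7 fell (22.2%, beside 17.6% of all genes), with a median log2 change of 0.03, and 35 were dim in both groups. Among the calls, 12 were of genes above the bound in at least 1 group, and the rest were of genes dim in both. In polarity and angiomotin families the changes were again of both signs. Llgl2, a Lethal giant larvae protein of the basolateral side, fell 1.50-fold (7.56 ± 0.14 in VECTOR and 6.97 ± 0.09 in AC9, SD, n = 3; limma adjusted p 0.00491). Dlg1, its Scribble-complex partner, rose 1.38-fold (limma adjusted p 0.0198). Amotl2 fell 1.50-fold and its relative Amotl1, also an angiomotin family scaffold, rose 1.38-fold (limma adjusted p 0.00285 and 0.00896).

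Among cadherin and nectin genes, Camsap3, which anchors microtubule ends at adherens junctions, fell 1.67-fold (limma adjusted p 0.00114). Nectin2, a nectin adhesion molecule, fell 1.40-fold and Ctnnal1, an alpha-catenin relative, 1.38-fold (limma adjusted p 0.00855 and 0.0154). Cdh3, P-cadherin, was called lower and Nectin1 higher, but both were dim in both groups. Cdh2, N-cadherin, was 9.29 ± 0.06 in VECTOR and 9.11 ± 0.03 in AC9 (SD, n = 3) and did not pass (limma adjusted p 0.209); it is named after its values were seen.

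Of 6 measured genes related to the matriptase system, 2 rose, both serine proteases (33.3% called, beside 17.6% of all genes). Tmprss11e, a transmembrane serine protease, rose 1.73-fold (6.58 ± 0.12 in VECTOR and 7.37 ± 0.04 in AC9, SD, n = 3; limma adjusted p 0.000691), and Prss22, a tryptase-like protease, 1.50-fold (limma adjusted p 0.0200). Tmprss2, Tmprss4, Tmprss6 and Hpn, the other 4 measured of the 8 listed as related to matriptase, did not pass. Cdsn, corneodesmosin, an adhesion protein of modified desmosomes, rose 1.44-fold (limma adjusted p 0.0224).

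The labels and the identity of the cells were checked on the same arrays. Adcy9 read 6.09 to 6.15 in VECTOR, close to the negative-control bound of 6.06, and 6.60 to 6.82 in AC9. Adcy9 was 1.53-fold higher in AC9 (limma adjusted p 0.00264). The epithelial keratins were bright in both groups: Krt8 was 11.87 ± 0.14 in VECTOR and 11.82 ± 0.07 in AC9, and Krt18 12.37 ± 0.07 and 12.62 ± 0.04 (SD, n = 3), neither called, while Krt7 rose by 0.48 and Krt19 had a log2 change of -0.47 (limma adjusted p 0.0119 and 0.00873). Of the markers of other cell types, 5 of 6 leukocyte, 6 of 7 fibroblast and 8 of 8 endothelial genes measured were dim in both groups, Ptprc and Pecam1 among them; 0 of these 21 passed the limma threshold, and 2 leukocyte, 0 fibroblast and 1 endothelial gene had an unadjusted p under 0.05. The mean level of the leukocyte list was 4.98 to 5.04 in VECTOR and 5.09 to 5.14 in AC9, and those of the other 2 lists overlapped between the groups. Of 23 background probe sets, which match no transcript, 19 had all AC9 arrays under all VECTOR arrays, with -0.50 as the lowest log2 difference; their part in the falls described here was not tested.

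The 17 calls differed in how much they rested on single arrays. Dsp, Pkp1, Perp, Ocln and Pard3 among the higher genes, and Jup, Ppl, Cldn2, Crb3 and Spint1 among the lower, passed 0.05 whichever array was left out, with adjusted p of at most 0.0388 by limma. These 10 genes were also past an adjusted p of 0.01 with all arrays. Pkp4, Cldn4, Tjp1, Ctnna1, Epcam, Lsr and Spint2 each lost the call without at least 1 array, as given beside them.

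**Figure D4:**
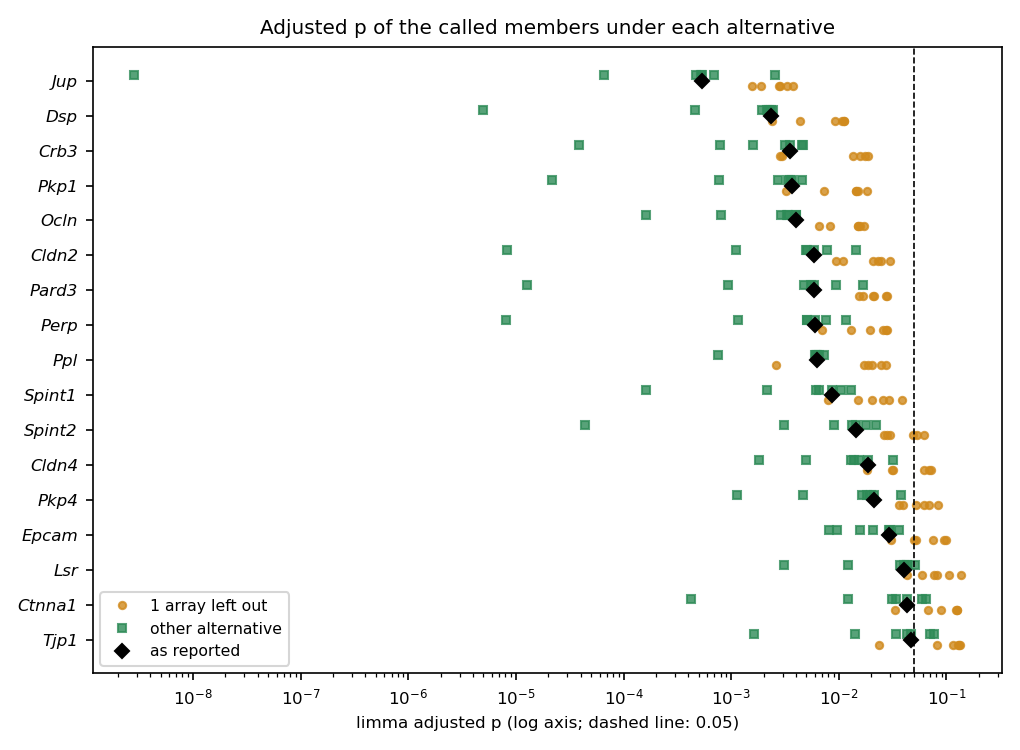
Limma adjusted p of the 17 called genes (log axis) with all arrays and the settings as reported (black diamonds), with 1 array left out (orange circles) and under the other alternatives (green squares), ordered by the reported value. The upper 10 genes, Jup to Spint1, have every point left of the dashed line at 0.05, while the lower 7 each have points to its right.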

How the data were processed

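The deposited values are log2 intensities of probe sets, which the authors produced with RMA, per the submitters' processing notes; the sources used here do not name its software, version or genome build. RMA corrects background, quantile-normalizes the arrays and summarises probes, which can compress small changes of dim genes. No further normalization was applied. GEO's platform annotation named 19572 of 22206 non-control probe sets. A gene with several was represented by its brightest one on average, which left 19505 genes; the 43 genes found here had 1 each.

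The groups were compared over all genes with lmFit and eBayes (limma 3.58.1, R 4.3.3; constant prior variance, two-sided), with Benjamini-Hochberg adjustment and a threshold of 0.05. SE and 95% intervals are those of the fit, SD is over 3 arrays, and the number of arrays limits the precision. The script was tested on simulated data, where 36% of log2 changes of 0.5 and 83% of log2 changes of 1 passed the threshold. Genes that were not called may thus include real changes of such sizes.

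The junction genes and lists were chosen with earlier results of these data known. All measured junction genes were described; of the other junction genes, the 12 that passed with the largest changes were named. No set test was made. Alternatives were a trended robust prior, repeated quantile normalization, median centring, leaving out dim genes, averaging probe sets, array weights, a block for the replicate number, an adjusted p of 0.01 and leaving out each array.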

Additional observations from a re-analysis of the deposited data

How the results depend on the processing

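Of the 17 junction genes called, 10 kept their call under all alternatives run for them, 7 lost it under at least 1, and 0 changed sign; 7 genes not called gained a call under at least 1 alternative, and 6 not called changed sign. Ppl has no value with dim genes left out. The number higher, 10 as reported, was 5 at an adjusted p of 0.01 and 5 to 10 with 1 array left out. The number lower, 7 as reported, was 11 with the trended robust prior and 5 to 8 with 1 array left out. Over all genes 3424 passed, 1670 at an adjusted p of 0.01 and 2174 to 3025 with 1 array left out, the lowest without AC9 replicate 1. With the replicate number as a block, 8 junction genes were higher, 7 lower and 3062 genes passed in all; Ctnna1 and Tjp1 lost their calls (limma adjusted p 0.0597 and 0.0774). The block changed no other call of a junction gene. The samples share only a number: deviations of same-numbered arrays correlated at 0.01, 0.08 and 0.01 across genes, and 2 of 3 arrays in each group correlated best with their own number. Signal over background limits the 9 genes under the negative-control bound.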
